A study of Mus musculus with 21 samples.

Results

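The genes described here encode the receptors for glutamate and GABA in the mouse brain: the AMPA, kainate, NMDA and delta subunits, the metabotropic glutamate receptors, and the numbered GABA-A and GABA-B subunits. They were chosen by symbol alone (Gria, Grik, Grin, Grid, Grm, Gabr or Gabbr followed by a number), which gave 44 of the 22058 protein-coding genes in the deposited table. Of the 44, 43 are receptor subunits, and Grid2ip, which the symbol pattern also takes in, encodes a scaffold protein and not a receptor. Gabrd, Gabre, Gabrp and Gabrq carry no number in their symbols and are described with the partner genes.

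The samples were pieces of the anterior right hemisphere of the brain from 9 eIF2B HOM mice (5 female and 4 male, 93 to 114 days old) and 12 wild-type mice (7 female and 5 male, 90 to 114 days old), all C57Bl6/J. The eIF2B HOM mice are homozygous for a knock-in of the Eif2b5 R191H substitution in the catalytic subunit of the translation initiation factor eIF2B, made as a model of Vanishing White Matter Disease. The knock-in allele was made with a neomycin cassette that Flp recombinase later removed, and homozygous and wild-type mice came from heterozygous parents, so the 2 groups were littermates. The mutation is present in every cell of the mouse, and it activates the integrated stress response, a pathway in which slowed translation initiation raises the transcription factor ATF4 and its target genes. Libraries were made by 3' mRNA sequencing with unique molecular identifiers in 2 batches, batch 1 with 4 eIF2B HOM and 8 wild-type animals (aged 104 to 114 days) and batch 2 with 5 eIF2B HOM and 4 wild-type animals (aged 90 to 104 days).

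Glutamate is the main excitatory and GABA the main inhibitory transmitter of the forebrain. AMPA, kainate and NMDA receptors and GABA-A receptors are ion channels assembled from several subunits, and which subunits a neuron makes sets the speed, ion permeability and drug sensitivity of the channel. Metabotropic glutamate receptors and GABA-B receptors instead act through G proteins, at synapses and also on glial cells.

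Libraries held 727018 to 2918902 counts in eIF2B HOM and 827862 to 3100141 counts in wild-type mice, so 1 count was worth roughly 1 CPM (counts per 1000000) in the smaller libraries. Atf5, a target of the integrated stress response, averaged 170 ± 26.7 CPM in eIF2B HOM and 20.6 ± 5.87 CPM in wild-type mice (SD, n = 9 and 12) and so followed the genotype labels. Eif2b5 itself averaged 41.5 ± 6.67 CPM in eIF2B HOM and 38.2 ± 5.53 CPM in wild-type mice, but tags from the 3' end do not cover the mutated codon and so do not check the labels. Of the markers of neurons (10 of 10 tested), glutamatergic neurons (7 of 8) and GABAergic neurons (8 of 10), 0 were called changed, and their summed levels overlapped between the genotypes. Of 10 astrocyte markers Gfap was called higher and Slc1a2 and S100b lower, and the summed level of the 10 was 5390 to 9410 CPM in eIF2B HOM and 7630 to 12100 CPM in wild-type mice. Of 10 oligodendrocyte markers 3 were called lower, Mbp and Mal among them, with sums of 4150 to 7010 CPM in eIF2B HOM and 4620 to 11300 CPM in wild-type mice. In bulk tissue, fewer cells of a type and less RNA per cell cannot be told apart. Markers of the olfactory bulb summed to 2.87 to 61.6 CPM in eIF2B HOM and 5.62 to 69.8 CPM in wild-type mice. None of these markers had enough counts to be tested, and whether the amount of bulb differed between the pieces was not tested.

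**Figure D1:**
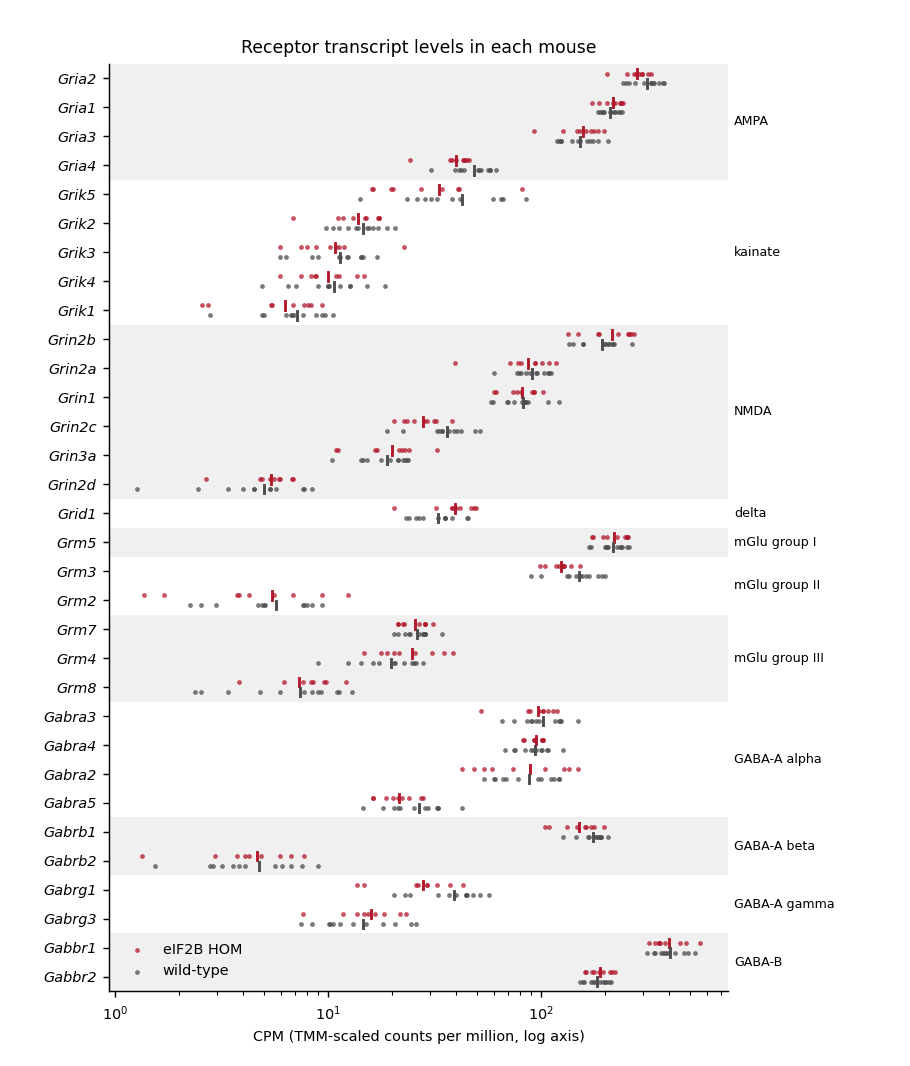
Level of 32 receptor genes with at least 100 counts in all (TMM-scaled CPM, log axis), grouped by receptor class. Each point is 1 mouse, with 9 eIF2B HOM mice above 12 wild-type mice for each gene and a short line at the group mean, and 1 eIF2B HOM mouse with 0 CPM of Grm8 cannot be drawn on this axis. Gabbr1 had the highest mean (401 CPM in eIF2B HOM and 403 CPM in wild-type mice), and the points of the 2 genotypes overlap for every gene drawn.

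The question put to these genes was whether receptor transcripts differed in mice homozygous for the Eif2b5 mutation. Of the 44 genes 33 had enough counts to be tested, and none of the 33 was called higher or lower in eIF2B HOM than in wild-type mice (edgeR quasi-likelihood test adjusted for sex and age, with a Benjamini-Hochberg adjusted p under 0.05 across 9192 genes). The background in this comparison was 4.32% of all tested genes, of which 241 (2.62%) were higher and 156 (1.7%) lower. At an unadjusted p under 0.05 there were 7 receptor genes, 21.2% of those tested against 16.5% of all genes: Gabrg1, Gria4, Grm3, Grin2c and Gabrb1 had lower and Grm4 and Grid1 higher estimates in eIF2B HOM mice. A 2-sided exact permutation test of log2 CPM, without sex and age, gave unadjusted p of 0.0415 to 0.0446 for Gabrg1, Gria4, Grin2c and Gabrb1. The same test gave 0.0626 for Grm3, 0.124 for Grid1 and 0.138 for Grm4. The log2 fold changes of the 33 genes (eIF2B HOM minus wild-type) lay between -0.50 and 0.37, with 12 above and 21 below 0 and a median of -0.02, beside a median of -0.007 over all tested genes. No receptor gene had levels that did not overlap between the genotypes, beside 0.446% of all tested genes.

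The comparison was precise enough to bound most of these differences. The 95% interval of the fold change lay within 1.5-fold in either direction for 28 of the 33 genes (84.8%, beside 85.9% of all tested genes) and within 2-fold for all 33. The 5 genes whose intervals reached past 1.5-fold were Gabrg1, Grin2c, Grik5, Grm8 and Grm4. The log2 fold change itself was within 0.1 of 0 for 15 genes, among them Gabbr1, Gabra4, Grin1, Grin2a and Grm5.

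**Figure D2:**
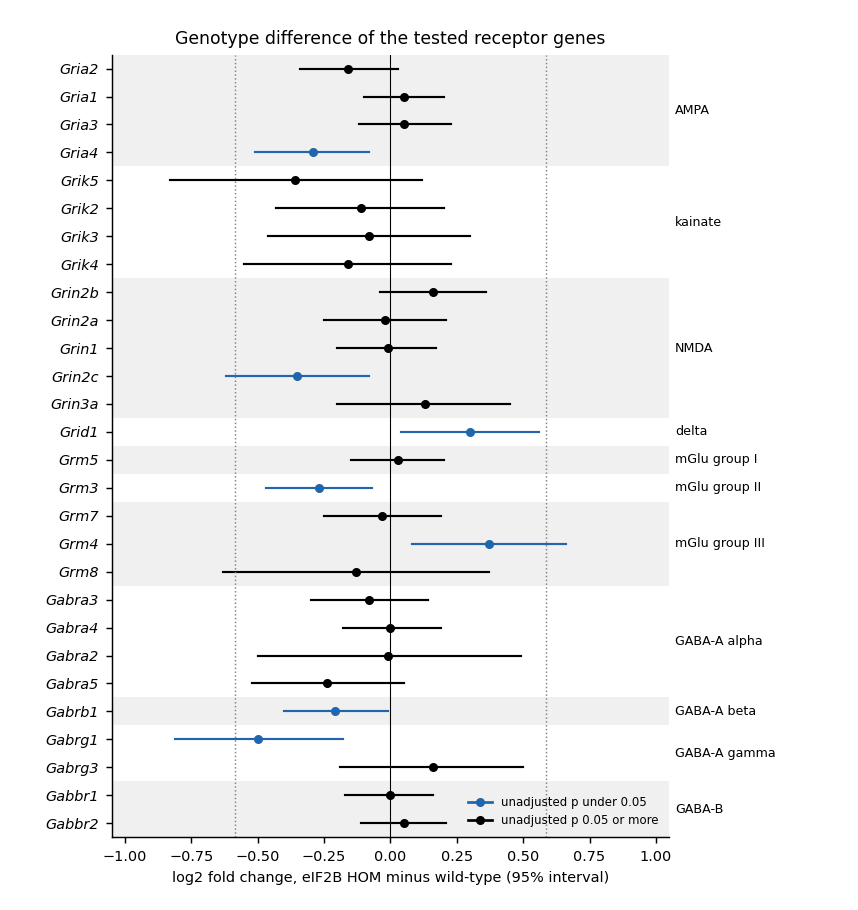
Log2 fold change of 28 of the 33 tested receptor genes (eIF2B HOM minus wild-type, x axis, with 95% interval), grouped by class, with dotted lines at a 1.5-fold difference either way. Estimates run from -0.50 for Gabrg1 to 0.37 for Grm4, and the 7 genes with an unadjusted p under 0.05 are drawn in blue.

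AMPA receptors carry most of the fast excitatory current. Their 4 genes were all tested and summed to 698 ± 79.5 CPM in eIF2B HOM and 728 ± 66.3 CPM in wild-type mice (SD, n = 9 and 12). Because a 3' library yields about 1 tag per transcript, CPM was compared between genes without division by length. In wild-type mice the order was Gria2, Gria1, Gria3, Gria4, and all 3 steps passed an exact sign-flip test of the within-mouse differences in log2 CPM (Benjamini-Hochberg over the 29 neighbouring pairs of all classes). Gria2, whose edited subunit makes the channel nearly impermeable to calcium, ran from 205 to 329 CPM in eIF2B HOM (median 290) and from 242 to 380 CPM in wild-type mice (median 330). All 9 eIF2B HOM mice lay below the wild-type median, within a wide overlap, and the log2 fold change was -0.16 (SE 0.09, edgeR adjusted p = 0.405). Gria1 averaged 218 ± 24.4 CPM and Gria3 157 ± 32.2 CPM in eIF2B HOM mice, against 211 ± 18.8 and 152 ± 28.2 CPM in wild-type mice, and their log2 fold changes were 0.05 each. Gria4, a subunit with fast kinetics found in interneurons and the thalamus, ran from 24.2 to 45.9 CPM in eIF2B HOM (median 43) and from 30.4 to 61.6 CPM in wild-type mice (median 50.9). Its log2 fold change of -0.29 (SE 0.11, unadjusted p = 0.0084, edgeR adjusted p = 0.12) was not called, although again all 9 eIF2B HOM mice lay below the wild-type median. The estimate was -0.28 (SE 0.18) in batch 1 alone and -0.38 (SE 0.13) in batch 2 alone.

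Kainate receptors modulate transmitter release and excitability. Their transcripts were the scarcest of the ionotropic glutamate classes apart from the delta receptors, at 74 ± 27.3 CPM in eIF2B HOM and 86.4 ± 20.7 CPM in wild-type mice (SD, n = 9 and 12). Grik5, a high-affinity subunit that needs a partner to form a channel, made up 42.1% of the class in eIF2B HOM and 46.9% in wild-type mice on average. It ran from 16.1 to 81.8 CPM in eIF2B HOM (median 27.3) and from 14.1 to 85.3 CPM in wild-type mice (median 35.3). The upper end in eIF2B HOM mice was 1 mouse, replicate 2, and the other 8 lay between 16.1 and 41.4 CPM. Its log2 fold change was -0.36 with an SE of 0.23 (edgeR adjusted p = 0.478), and its biological coefficient of variation was 0.326, against 0.122 for the trend at its level. The other kainate genes, Grik2, Grik3, Grik4 and Grik1, averaged 6.26 to 13.8 CPM in eIF2B HOM and 7.12 to 14.6 CPM in wild-type mice. Within these, Grik2 and Grik3 (exact sign-flip p = 0.0664, 12 wild-type mice) and Grik3 and Grik4 (exact p = 0.6) did not differ beyond the spread between mice. Grik1 had 224 counts over all libraries and failed the filter. RefSeq places the end of Grik2 1153 bases beyond the gene model used for the counts. The level of Grik2, and with it the sum, shares and order of the class, cannot be read from these counts alone.

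NMDA receptors detect coincident activity and pass calcium. Grin1, the subunit every NMDA receptor contains, ran from 60.4 to 102 CPM in eIF2B HOM (median 80.2) and from 58.5 to 122 CPM in wild-type mice (median 82.6), with a log2 fold change of -0.01 (SE 0.09). Grin2b, the glutamate-binding subunit that dominates the developing forebrain, was the most abundant transcript of the class, at 134 to 274 CPM in eIF2B HOM (median 230) and 135 to 269 CPM in wild-type mice (median 204). Its estimate of 0.16 (SE 0.10, edgeR adjusted p = 0.445) came with almost complete overlap. Grin2a, the subunit that joins mature receptors, averaged 87.1 ± 23.3 CPM in eIF2B HOM and 91.2 ± 15.6 CPM in wild-type mice, close to Grin1, from which it did not differ after adjustment (exact sign-flip p = 0.0449 before and 0.0521 after adjustment over 29 pairs, 12 wild-type mice). Grin2b held 71.3 ± 4.59% of the summed Grin2a and Grin2b counts in eIF2B HOM and 67.9 ± 3.31% in wild-type mice (SD, n = 9 and 12), with ranges of 63.3 to 79.1% in eIF2B HOM and 62.2 to 72.8% in wild-type mice.

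Grin2c, a subunit of cerebellar granule cells that mouse forebrain astrocytes and thalamic neurons also make, had the most negative estimate of the NMDA class. It ran from 20.4 to 38.2 CPM in eIF2B HOM (median 28.3) and from 19 to 51.7 CPM in wild-type mice (median 35.7). Of the 9 eIF2B HOM mice 8 lay below the wild-type median, but the lowest wild-type mouse was lower than any of them. The log2 fold change was -0.35 (SE 0.13, unadjusted p = 0.0117, edgeR adjusted p = 0.144), and within batches it was -0.46 (SE 0.23) in batch 1 and -0.29 (SE 0.16) in batch 2. Grin3a, a glycine-binding subunit, averaged 19.9 CPM in eIF2B HOM and 18.9 CPM in wild-type mice, and Grin2d 5.42 CPM in eIF2B HOM and 5.01 CPM in wild-type mice. Grin3b, a subunit of motor neurons, had 1 count in all 21 libraries.

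The delta receptors bind cerebellins and organise synapses more than they carry current. Grid1 ran from 20.4 to 49.7 CPM in eIF2B HOM (median 39.7) and from 23.2 to 45.2 CPM in wild-type mice (median 34.2). The highest wild-type mouse was exceeded by 3 of the 9 eIF2B HOM mice, and 1 eIF2B HOM mouse was lower than the lowest wild-type mouse. The log2 fold change was 0.30 (SE 0.13, unadjusted p = 0.0264, edgeR adjusted p = 0.219), made up of 0.09 (SE 0.20) in batch 1 and 0.40 (SE 0.17) in batch 2.

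Group I metabotropic receptors act through Gq and calcium release. Grm5, a mostly postsynaptic receptor of forebrain neurons, ran from 174 to 256 CPM (median 227) in eIF2B HOM and from 168 to 258 CPM (median 218) in wild-type mice. Its log2 fold change was 0.03 with a 95% interval of -0.15 to 0.20.

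Group II receptors lower cyclic AMP and damp transmitter release, and almost all of their transcript was Grm3, which both neurons and astrocytes make. Grm3 ran from 99.3 to 153 CPM in eIF2B HOM (median 127) and from 89.5 to 199 CPM in wild-type mice (median 154). All 9 eIF2B HOM mice lay below the wild-type median, but 2 wild-type mice of batch 1, at 89.5 and 100 CPM, were about as low as the lowest of them. The log2 fold change over all mice was -0.27 (SE 0.10, unadjusted p = 0.00907, edgeR adjusted p = 0.125). In batch 1 alone it was -0.13 (SE 0.16). In batch 2 alone the 5 eIF2B HOM mice averaged 124 ± 12.5 CPM and the 4 wild-type mice 179 ± 20.3 CPM without overlap, and the estimate of -0.52 (SE 0.11, edgeR adjusted p = 0.00964) was called, beside 1.18% of all genes called and 3.22% not overlapping there. Receptor genes without overlap in batch 2 numbered 3 of the 35 tested there, Gria4 among them. The genotype by batch term of Grm3 was not called, and since the ages in batch 2 did not overlap between the genotypes, genotype and age cannot be told apart there. Grm2, the presynaptic partner of the group, had 178 counts in all.

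Group III receptors are mostly presynaptic. Grm7 and Grm4 led the class in wild-type mice, and Grm4 was the receptor gene with the most positive estimate. It ran from 14.8 to 38.5 CPM in eIF2B HOM (median 21.5) and from 8.95 to 27.8 CPM in wild-type mice (median 20.6). In batch 2, 3 eIF2B HOM mice lay above every wild-type mouse, while the medians were close. On the log2 scale the difference was 0.37 (SE 0.14, unadjusted p = 0.0147, edgeR adjusted p = 0.158), against 0.21 (SE 0.25) in batch 1 and 0.27 (SE 0.20) in batch 2. Grm7, the most widespread of the group, averaged 25.7 ± 3.7 CPM in eIF2B HOM and 26.3 ± 3.88 CPM in wild-type mice, with a log2 fold change of -0.03 (SE 0.11). Grm8 averaged 7.34 CPM in eIF2B HOM and 7.37 CPM in wild-type mice, and Grm6, the receptor of retinal ON bipolar cells, had 1 count.

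**Figure D3:**
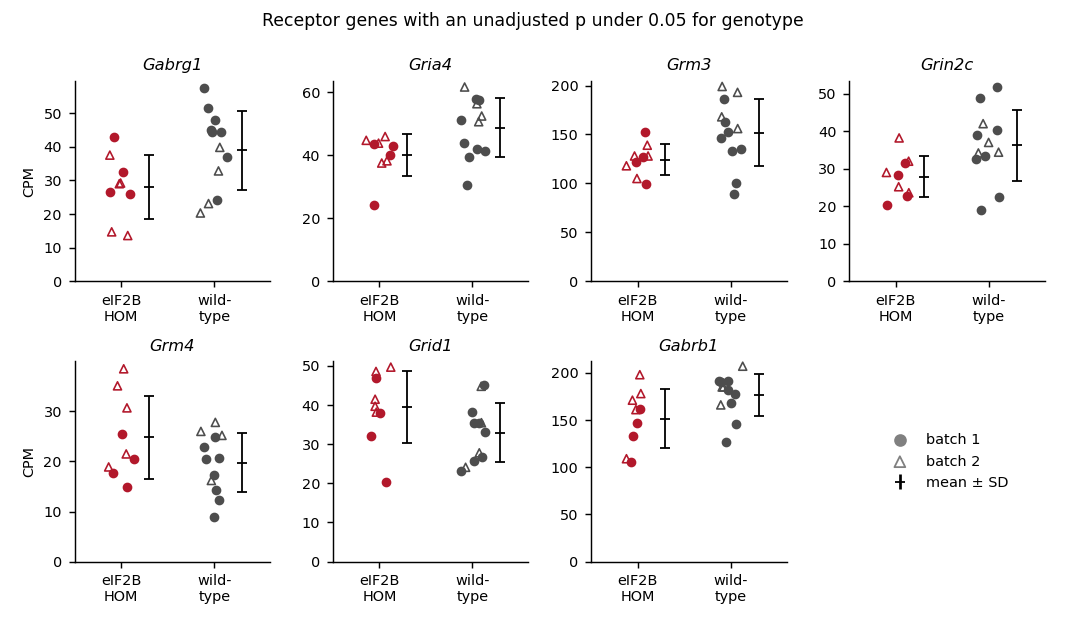
CPM in each mouse of the 7 receptor genes with an unadjusted p under 0.05, eIF2B HOM left of wild-type, with filled circles for batch 1, open triangles for batch 2 and the mean ± SD of each genotype (n = 9 and 12). The ranges overlap for all 7 of these genes, and none was called after adjustment (smallest edgeR adjusted p = 0.0623, Gabrg1).

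GABA-A receptors are chloride channels built mostly from alpha, beta and gamma subunits. Many of the genes lie in clusters in the mouse genome, and Gabrg1, Gabra2, Gabra4 and Gabrb1 lie within 1.4 Mb of chromosome 5 (GRCm38). Mean levels within this cluster ranged from 27.9 to 151 CPM in eIF2B HOM mice and from 39 to 176 CPM in wild-type mice. Gabra4 and Gabrb1 overlap by 196 bases at their 5' ends, on opposite strands, but the 3' end of each, where tags are taken, lies outside the other gene.

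Among the alpha subunits, which with gamma set benzodiazepine sensitivity, Gabra3, Gabra4 and Gabra2 averaged 96.8, 94.4 and 88.4 CPM in eIF2B HOM and 103, 93.4 and 87.9 CPM in wild-type mice, and their order could not be told within the spread between mice (exact sign-flip p = 0.348 for Gabra3 and Gabra4 and 0.457 for Gabra4 and Gabra2, 12 wild-type mice). Gabra4 had an SD of 7.79 CPM over the eIF2B HOM and 16.6 CPM over the wild-type mice. Its biological coefficient of variation was 0.117, close to the 0.122 of the trend at its level. Gabra2 was the most variable of the 3, from 42.6 to 149 CPM in eIF2B HOM and from 54 to 122 CPM in wild-type mice, and its coefficient of variation of 0.355 compares with 0.122 for the trend. Gabra2 spread this widely within both batches, and its log2 fold change of -0.01 had a 95% interval of -0.50 to 0.49. Gabra5, a subunit of hippocampal extrasynaptic receptors, averaged 21.6 ± 4.26 CPM in eIF2B HOM and 26.7 ± 7.92 CPM in wild-type mice (log2 fold change -0.24, SE 0.14, edgeR adjusted p = 0.422), and Gabra6, specific to cerebellar granule cells, had 2 counts in all.

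The beta subunits are needed by every GABA-A receptor of this kind. Gabrb1 ran from 105 to 198 CPM in eIF2B HOM (median 161) and from 127 to 207 CPM in wild-type mice (median 184). The wild-type median was above 8 of the 9 eIF2B HOM mice. Its estimate was -0.21 on the log2 scale (SE 0.10, unadjusted p = 0.0381, edgeR adjusted p = 0.262), with -0.32 (SE 0.13) in batch 1 and -0.20 (SE 0.13) in batch 2. Gabrb2 reached only 4.61 ± 1.94 CPM in eIF2B HOM and 4.73 ± 2.23 CPM in wild-type mice, 157 counts in all, and failed the filter.

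Since tags come from the end of a transcript, a low count can reflect where the gene model ends as well as how much transcript there is. The last 30 annotated bases of Gabrb1 and Gabrb2 are shown because they differ in this respect, with those of Gria2 and Gabbr1, the most abundant ionotropic and the most abundant of all receptor transcripts here, beside them. The sequences are those of the Gencode M21 transcripts on GRCm38, 5′ to 3′, on the strand of the gene, and capitals mark the polyadenylation signals AATAAA and ATTAAA.
Gabrb1, chr5:72149008-72149037, plus strand: tatttcAATAAAaaaaatttaagaaaccaa
Gabrb2, chr11:42628999-42629028, plus strand: catgtgctcagagtaaagattcttcaaatt
Gria2, chr3:80681450-80681479, minus strand: gattataagtcacccagcccctaaccagaa
Gabbr1, chr17:37075038-37075067, plus strand: tcctttgaaaacaacccatagtgattatcc

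Gabrb1 holds a signal and Gabrb2 does not, and RefSeq places the end of Gabrb2 3563 bases beyond the end of the gene model used for the counts. Gria2 and Gabbr1 hold no signal either and were counted abundantly, but RefSeq places the end of Gabbr1 before the end shown (-762 bases). Whether a missing signal goes with a low count was not tested. Over the 44 genes 36 had a signal in this window (81.8%, beside 63.6% of all protein-coding genes with a transcript), and 3 had a RefSeq end at least 500 bases further out (6.82%, beside 6.99% of genes compared): Gabrb2, Grik2 (1153 bases) and Gabrb1 (535 bases). How many transcripts of Gabrb2, Grik2 and Gabrb1 end beyond the counted models was not tested. The levels of these genes relative to the other genes cannot be read from these counts alone.

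The gamma subunits link receptors to the synapse and to benzodiazepine binding. Gabrg1, a rarer form found in parts of the basal forebrain and, in mouse, in astrocytes, had the smallest p of all receptor genes. It lies on the minus strand of chromosome 5, from 70751047 to 70842617.
Gabrg1, chr5:70751047-70751076, minus strand: acAATAAAataaacaactgcaatcaggaac

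The signal in capitals stands near the start of these last 30 bases. Gabrg1 ran from 13.6 to 42.9 CPM in eIF2B HOM (median 29) and from 20.3 to 57.3 CPM in wild-type mice (median 42.1). The lowest wild-type mouse was higher than 2 eIF2B HOM mice, both of batch 2, and 8 of the 9 eIF2B HOM mice lay below the wild-type median. The log2 fold change was -0.50 (SE 0.15), with a 95% interval of -0.81 to -0.18, an unadjusted p of 0.00292 and an edgeR adjusted p of 0.0623. Within batches the estimate was -0.48 (SE 0.19) in batch 1, where the means were 31.9 ± 7.94 CPM in eIF2B HOM and 43.9 ± 9.96 CPM in wild-type mice, and -0.31 (SE 0.24) in batch 2, where they were 24.8 ± 10.3 CPM in eIF2B HOM and 29 ± 8.94 CPM in wild-type mice. Its call depended on the method and on single mice: limma voomWithQualityWeights, the model of the study, gave -0.53 with an adjusted p of 0.043, beside 5.96% of all genes called by that method, while edgeR with batch in place of age gave -0.37 (SE 0.18, adjusted p = 0.423) and with both age and batch -0.52 (SE 0.19, adjusted p = 0.151). Over the 14 other fits of the genotype comparison the adjusted p lay between 0.043 and 0.79. Gabrg1 was itself lower in batch 2 than in batch 1, as given with the batches below, and the genotypes were unevenly spread over the batches. Leaving out 1 mouse took the edgeR adjusted p past the threshold for 6 of the 21 mice. Of the 5 genes with lower estimates and an unadjusted p under 0.05, Gabrg1, Grm3 and Grin2c are also made by astrocytes in mouse. The astrocyte markers did not move together: 1 of the 10 was called higher (Gfap, log2 fold change 0.78), 2 lower (Slc1a2, -0.76, and S100b, -0.39) and 7 in neither direction, with a median of -0.03. Most of the difference in their summed level was Slc1a2, at 3580 CPM in eIF2B HOM and 5960 CPM in wild-type mice. Among the 7 not called, Aqp4 (-0.29), Aldoc (-0.14) and Gja1 (-0.07) had negative estimates. Aldh1l1 (0.24), Gjb6 (0.09), Slc1a3 (0.08) and Fgfr3 (0.01) had positive ones. The part of astrocytes in the receptor estimates was not tested. Gabrg3, the third gamma gene, averaged 15.9 CPM in eIF2B HOM and 14.6 CPM in wild-type mice.

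The rho subunits form GABA channels of the retina. Gabrr1 and Gabrr3 had 0 counts in all 30893679 counts, which allows up to 0.0971 CPM for each (3 counts of the total, counting error only), and Gabrr2 had 6.

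GABA-B receptors are obligate pairs of GABBR1, which binds GABA, and GABBR2, which couples to the G protein. Gabbr1 was the most abundant of all receptor transcripts, at 322 to 558 CPM in eIF2B HOM (median 362) and 315 to 532 CPM in wild-type mice (median 387). Its log2 fold change was 0.00 with a 95% interval of -0.17 to 0.16. Gabbr2 ran from 161 to 222 CPM in eIF2B HOM (median 187) and from 152 to 214 CPM in wild-type mice (median 185), with a log2 fold change of 0.05 and an interval of -0.11 to 0.21. Gabbr1 exceeded Gabbr2 in every mouse, holding 61.8 to 77.6% of their sum in eIF2B HOM and 61.1 to 75.2% in wild-type mice.

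Of the 44 genes 11 had too few counts for the test: Grik1, Grin2d, Grm2 and Gabrb2 with 157 to 224 counts each, Gabrr1 and Gabrr3 with 0, and Grin3b, Grm6, Gabra6, Gabrr2 and Grid2ip with 1 to 14. For Grik1, Grin2d, Grm2 and Gabrb2 a 2-sided exact permutation test of log2 CPM over all 293930 splits of the mice gave p from 0.403 to 0.946. Grid2ip had 10 counts in eIF2B HOM and 4 in wild-type mice (unadjusted exact p = 0.0129, 1 of 44 such tests), a level too low to describe further.

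The order of levels was read within each class in wild-type mice and again in eIF2B HOM mice. Of 29 neighbouring pairs 5 did not differ in wild-type mice and 7 in eIF2B HOM mice, where Grik4 with Grik1 and Grm7 with Grm4 joined the 5 pairs already named. In no pair did the mean levels stand in the opposite order in eIF2B HOM mice. Whether the order itself differed between the genotypes was not tested.

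More receptor genes were called between the batches than between the genotypes. Of the 33 genes, edgeR called 9 higher and 2 lower in batch 2 than in batch 1, with genotype and sex in the model. These were 33.3% of the receptor genes, beside 21.6% of all genes (10.2% higher and 11.4% lower). Estimates were above 0 for 27 of the 33, and the share above 0 over all genes was not counted. Grin2b had a log2 difference of 0.49 (SE 0.09, edgeR adjusted p = 0.000375), with 208 to 274 CPM in batch 2 and 134 to 216 CPM in batch 1, ranges that overlapped only a little. Grin1 (0.37) and Grin2a (0.35), the other main NMDA genes, were also called higher, and so were Gria3 (0.38), Grm5 (0.26), Grm4 (0.48), Gabrg3 (0.49) and Gabbr1 (0.31). Gabrg1 (-0.52, SE 0.18, edgeR adjusted p = 0.0415) and Grik5 (-0.97, SE 0.28, edgeR adjusted p = 0.0194) were lower in batch 2. Grik5 held 14.1 to 41.4 CPM in batch 2 and 16.3 to 85.3 CPM in batch 1. The mice of batch 2 were 90 to 104 days and those of batch 1 104 to 114 days old, so batch and age cannot be told apart. The summed astrocyte markers had a median of 7630 CPM in batch 2 and 9750 CPM in batch 1, and the GABAergic neuron markers ran from 589 to 877 CPM in batch 2 and from 428 to 672 CPM in batch 1. Their part in the batch differences was not tested.

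**Figure D4:**
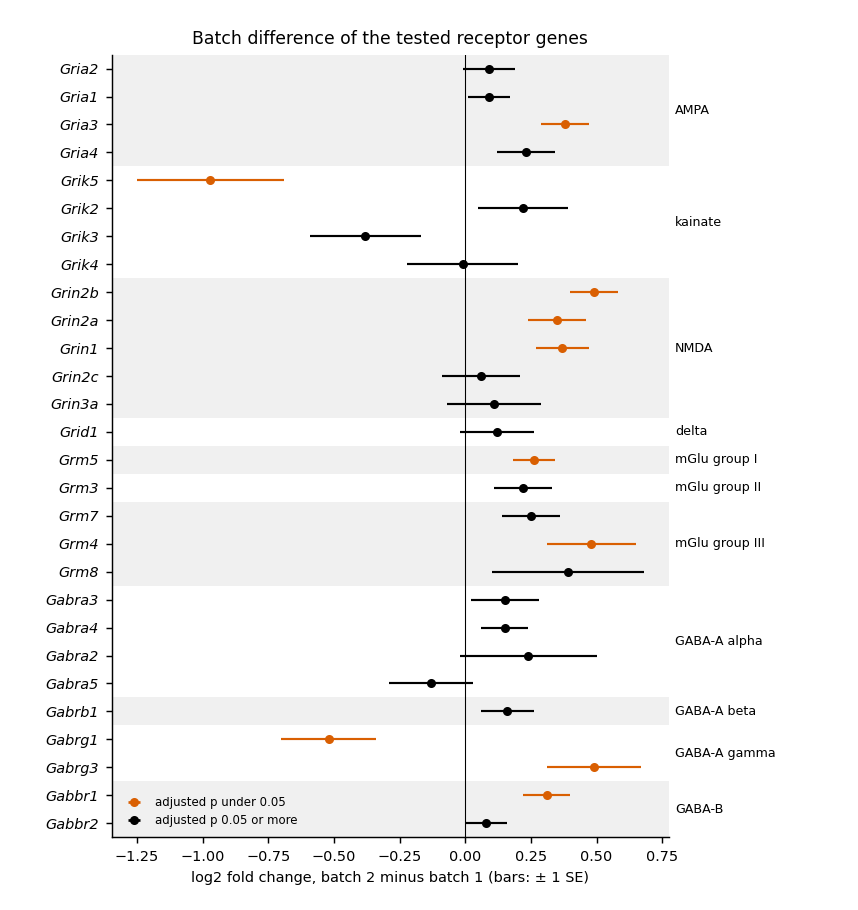
Log2 difference of 28 of the 33 tested receptor genes between the batches (batch 2 minus batch 1, x axis, bars ± 1 SE), with the genes called at an adjusted p under 0.05 in orange. The 8 genes drawn that were called higher lie to the right, Grin2b and Gabrg3 at 0.49, and Gabrg1 (-0.52) and Grik5 (-0.97) lie to the left.

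No sex difference was called among the 33 receptor genes (edgeR, 0 of 33, beside 0.0326% of all genes), with an unadjusted p under 0.05 for 2, Gabrg3 (male minus female -0.50) and Grm8 (0.56). The genotype difference was not called to depend on sex (0 of 33 genes, 0 at an unadjusted p under 0.05) or on batch (0 of 33, 2 at an unadjusted p under 0.05). Over all 9192 tested genes edgeR also called 0 in each term, so these counts are not particular to receptor genes. With limma voomWithQualityWeights 0 receptor genes were called in each. In the genotype by batch term Grin3a had an estimate of 0.93 (unadjusted edgeR p = 0.00698, adjusted p = 1). Grin3a averaged 15 CPM in eIF2B HOM and 19.8 CPM in wild-type mice of batch 1, and 23.8 CPM in eIF2B HOM and 17.3 CPM in wild-type mice of batch 2.

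Genes whose products assemble, anchor or supply these receptors were looked at beside them. With them were counted the 4 GABA-A subunits named by a letter and 5 glycine receptor subunits. Of these 69 genes 53 were tested and 0 were called (edgeR), beside 4.32% of all tested genes. At an unadjusted p under 0.05 there were 2, or 3.77% of those tested, beside 16.5% of all genes, and the median log2 fold change was 0.00. The auxiliary subunits of AMPA receptors (9 of 12 tested) summed to 656 ± 64.2 CPM in eIF2B HOM and 681 ± 80.6 CPM in wild-type mice (SD, n = 9 and 12), and the excitatory scaffold genes (19 of 21) to 9850 ± 942 CPM in eIF2B HOM and 9830 ± 1280 CPM in wild-type mice. The smallest p was that of Aldh5a1, the enzyme that completes GABA breakdown, at 71.7 CPM in eIF2B HOM and 86.7 CPM in wild-type mice (log2 fold change -0.27, edgeR adjusted p = 0.0758). Gad1, the main GABA-synthesising enzyme, averaged 147 CPM in eIF2B HOM and 176 CPM in wild-type mice (-0.24, edgeR adjusted p = 0.306), and Slc32a1, which loads GABA into vesicles, 112 CPM in eIF2B HOM and 94.4 CPM in wild-type mice (0.25, edgeR adjusted p = 0.359). Gephyrin (Gphn), the scaffold of inhibitory synapses, averaged 39 CPM in eIF2B HOM and 45 CPM in wild-type mice (-0.20, edgeR adjusted p = 0.398). Gabrd, the extrasynaptic delta subunit, averaged 20.5 CPM in eIF2B HOM and 19.6 CPM in wild-type mice (0.05), and Gabre, Gabrp and Gabrq had 2, 0 and 8 counts.

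Promoters were searched because the integrated stress response acts through ATF4, which binds a composite of C/EBP and ATF half-sites. RefSeq windows of 300 bases (250 before and 50 after the start, GRCm38) were available for 30 of the 44 genes, 38 windows in all. The motif TGATGNAA, on either strand, was in 3 of the 38 windows (7.89%, beside 3.97% of all 32851 windows), 1 of Gabra6 and 2 overlapping ones of Grm7, and the cAMP response element TGACGTCA was in 0 (1.79% of all). The first Grm7 window is shown because Grm7 is the one tested receptor gene holding the motif (in capitals), and it was not called changed.
Grm7, chr6:110645262-110645561, plus strand: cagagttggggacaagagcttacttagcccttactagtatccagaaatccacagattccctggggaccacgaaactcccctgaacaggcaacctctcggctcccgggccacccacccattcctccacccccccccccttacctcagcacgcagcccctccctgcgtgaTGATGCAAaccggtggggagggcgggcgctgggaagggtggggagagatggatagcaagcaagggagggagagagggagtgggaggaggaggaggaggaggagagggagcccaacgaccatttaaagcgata

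In the same mice Grm7 had a log2 fold change of -0.03 with a 95% interval of -0.25 to 0.19. A match to these letters is a description of the window and not of a bound site.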

How the data were processed

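The authors prepared QuantSeq 3' libraries with unique molecular identifiers, used STAR for alignment to GRCm38 and featureCounts (Subread 1.6.2) with Gencode models for counting, and deposited raw counts of protein-coding genes. The strand setting of the counting is not given in the sources used here. All 51813 deposited counts of 100 or more are rounded to 2 significant digits. The deposited CPM values were not used. The study's methods name a minimum of 1000000 counts per library. Summed over the deposited protein-coding genes, 5 of the 21 libraries (2 eIF2B HOM, 3 wild-type) do not reach it. The study's total may have taken in other genes too, so these libraries need not have failed its minimum. All 21 were kept, and the fit without those 5 is given below.

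Genotype, sex, age and batch came from the sample labels. The count test was the robust quasi-likelihood test of edgeR 4.0.16 (R 4.3.3) after TMM scaling and filterByExpr (minimum count 10, genotype as group), in a model of genotype, sex and age, with Benjamini-Hochberg adjustment across 9192 genes and a threshold of 0.05. The SE is the log2 fold change divided by the square root of the F statistic. CPM of every gene was scaled with the TMM factors of the 9192 tested genes, with a prior count of 2 for log2 values. The batch and interaction terms were fitted in separate edgeR models. The code was tested on simulated data. Alternatives were limma 3.58.1, DESeq2 1.42.0, other scalings, filters, covariates and subsets of mice, and leaving out each mouse in turn. At 727018 to 3100141 counts per library, genes of low level could not be tested. Grik1 failed the filter at 6.26 CPM in eIF2B HOM and 7.12 CPM in wild-type mice. Grm8 passed at 7.34 CPM in eIF2B HOM and 7.37 CPM in wild-type mice. Limits for counts of 0 cover counting error only. The intervals of the log2 fold changes were built from the SE of the quasi-likelihood fit and so take in the spread between these mice. The p-values likewise judge differences against that spread.

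The receptor genes, the marker lists and the partner lists were chosen with earlier results of these data known. Genes named with values are those with an unadjusted p under 0.05, the 2 most abundant in wild-type mice of each class, those called under an alternative, those with few counts, and the partner gene with the smallest p. Some genes that this rule takes in are not reported here and are not drawn, while the counts include them. Grin1, Grin3a, Gabra2, Gabra5 and others of a class are named outside this rule to complete the class.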

Additional observations from a re-analysis of the deposited data

Results flagged for a closer look

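Among the 9 eIF2B HOM mice, 4 of the 33 tested receptor genes had 1 mouse far from the others (gap to the nearest mouse over the whole range above 0.493, which chance gives in about 1 of 20 genes). In all 4 it was eIF2B HOM replicate 2, a female of 114 days in batch 1 with 773134 counts. It had 24.2 CPM of Gria4 where the next mouse had 37.5, and 52.3 CPM of Gabra3 where the next had 86.8. It had 22.8 CPM of Grik3 where the next mouse had 11.9, and 81.8 CPM of Grik5 where the next had 41.4. Without this mouse 0 receptor genes were called in either direction by edgeR, and the log2 fold changes were -0.26 for Gria4, -0.03 for Gabra3, -0.19 for Grik3 and -0.48 for Grik5, in place of -0.29, -0.08, -0.08 and -0.36. The 12 wild-type mice were not looked at in this way.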

How the results depend on the processing

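The count of receptor genes called higher in eIF2B HOM mice was 0 under all 14 other fits of the genotype comparison, without each mouse in turn, and in the 16 libraries of at least 1000000 counts, a setting chosen after seeing the data. The count called lower was 0 except for 1 with limma voomWithQualityWeights (Gabrg1), 1 in batch 2 alone (Grm3) and 0 to 1 without single mice: Gabrg1 was called without wild-type replicate 4, 5, 7 or 12 or eIF2B HOM replicate 5 or 7 (log2 fold changes over all leave-one-out fits -0.60 to -0.42), and Grm3 without wild-type replicate 8 (-0.33, edgeR adjusted p = 0.0215). Over the 14 fits Gabrg1 lay between -0.65 and -0.28 and Grm3 between -0.52 and -0.13. The sign turned for Grik5 in batch 2 alone (0.01) and for Grin2b with batch added to sex and age (0.00) and in batch 1 alone (-0.10), none of them called. The causes were not tested. Receptor genes called higher in batch 2 numbered 9 over all mice and 4 in wild-type mice alone (29 tested, 12 mice). Neighbouring pairs that did not differ numbered 5 in wild-type, 7 in eIF2B HOM and 4 in the 8 wild-type mice of batch 1. The 4 wild-type mice of batch 2 could not be tested for order, since their smallest possible p is 0.125. No paired analysis was possible because the labels name no litter and give the groups no shared replicate numbers. Depth limits the 11 genes that failed the filter.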
